A study of Mus musculus with 16 samples.

Results

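The data described here are the 8 arrays of the TERT-off cohort, of 16 arrays in all: dorsal skin of 2 iK5-TERT mice taken at 0, 6, 12 and 24 h. They were chosen by their label alone, as every array marked TERT-off. The question they address is how gene expression in skin whose follicles are in TERT-induced growth moves in the first day after the Tert transgene is silenced, and which of these movements both mice show. Each mouse gave 1 array per time, and the 6 arrays of 6, 12 and 24 h were set against the 2 arrays of 0 h.

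The iK5-TERT mice carry 2 transgenes, K5tTA and tetop-TERT. The keratin 5 promoter drives the tetracycline transactivator in basal keratinocytes and the outer root sheath, and the transactivator switches on Tert unless doxycycline is present. Doxycycline in the drinking water (5 µg/ml) held the transgene off until postnatal day 10 to 21. By the labels the mice were 60 days old and their follicles were in anagen, the growth phase. TERT-off mice were given 1 injection of doxycycline (8 µg/g body weight), and the 2 mice of the TERT-on cohort, of the same genotype and age, received vehicle. The labels mark the TERT-off arrays of 0 h as injected, whereas the study's text places that biopsy just before the injection. The labels used here name neither sex nor strain. The study speaks of serial biopsies, so arrays of 1 cohort with the same replicate number are treated as 1 mouse, and each later biopsy came from a mouse that had already been biopsied. A biopsy covered 3 cm2, with the subcutaneous fat removed, and holds every cell type of the follicle, epidermis and dermis.

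The deposited intensities, linear values made by the authors in dChip, have a median of 34.0 to 36.3 on the TERT-off arrays. The ratio of 5′ to 3′ Gapdh signal, a check of RNA integrity, was 0.977 to 1.12 on these 8 arrays. One array of the other cohort, TERT-on mouse 1 at 0 h, stood apart at 0.0599, and it enters the fit because all 16 arrays share 1 estimate of the spread. The basal keratinocyte markers Krt5 and Krt14 were bright on all 8 TERT-off arrays, with intensities of at least 2435 and 3192. Of 12580 genes tested, 12413 had a value on all 8 arrays. Changes below are log2 differences from a limma fit with the standard error, and a gene is called where its Benjamini-Hochberg adjusted p is under 0.05. The p-values rest on the spread between 2 mice per cohort.

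Hair follicles pass through growth, regression and rest, and pigment cells in the hair bulb make melanin only while the shaft grows. Skin that has been cut answers with an ordered program: damaged keratinocytes and resident macrophages release chemokines, neutrophils arrive first, and keratinocytes at the edge switch to wound keratins. Many skin genes also follow the time of day through the circadian clock, and 0 and 24 h fall at the same hour.

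Tert, the catalytic subunit of telomerase, was the gene the injection was meant to silence. Its intensity was 185 and 200 on the 0 h arrays of TERT-off mouse 1 and mouse 2. In mouse 1 it was 10.8, 11 and 14.9 at 6, 12 and 24 h, and in mouse 2 it was 16.1, 8.32 and 14.0. All 6 later arrays lay far below both 0 h arrays, from the first biopsy after the injection on. The mean of the later arrays fell by 3.97 ± 0.34 on the log2 scale (limma adjusted p = 0.00046). Tert also fell in the vehicle-injected cohort, from 357 and 216 to between 22.6 and 64.6 (-2.75 ± 0.34, limma adjusted p = 0.0089), and the difference between the cohorts' changes did not pass the test (-1.23 ± 0.48, limma adjusted p = 0.33). Without the 0 h array of low Gapdh ratio the vehicle change was -2.37 ± 0.44, and without TERT-on mouse 1 it was -2.30 ± 0.33. Neither passed the threshold. The vehicle call was also lost without either TERT-off mouse, and so was the TERT-off call. Each of these fits leaves 1 array in a group. Over 18 alternative fits the TERT-off change was -4.10 to -3.21. From 6 h on, the TERT-on and TERT-off levels do not overlap.

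Beside Tert, 3 genes of 1 stretch of mouse chromosome 2 fell: in the order of the GRCm38.p6 annotation they are Meis2, Spred1 and Fam98b, with only Tmco5, which has no probe set tested, among them. Spred1, an inhibitor of Ras and ERK signalling, had an intensity of 1133 and 1513 at 0 h, then 311, 288 and 326 in mouse 1 and 437, 318 and 372 in mouse 2. It fell by 1.95 ± 0.17 on the log2 scale (limma adjusted p = 0.00047), with 8 of 8 probe sets called lower. Meis2, a homeodomain transcription factor, stood at 262 and 290 at 0 h and at 60.0 to 97.4 on the 6 later arrays, a fall of 1.79 ± 0.19 with 4 of 4 probe sets called. Fam98b, between Spred1 and the signalling gene Rasgrp1, fell by 0.80 ± 0.11, from 981 and 1051 to between 509 and 656. The levels of all 3 were low by 6 h and then flat, in both mice, as those of Tert were. Their measured neighbours on either side were not called: BC052040 differed by -0.22, Dph6 by -0.04, Rasgrp1 by -0.20 and Thbs1 by 0.80. Of 18 alternative fits, Spred1 kept its call in 17, Meis2 in 16 and Fam98b in 12. The changes ran from -2.02 to -1.87, -2.01 to -1.56 and -0.88 to -0.74. For each of these 3 genes a fit without a TERT-off mouse was among those that lost the call.

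In the vehicle-injected cohort Spred1 fell by 1.79 ± 0.17 (limma adjusted p = 0.0015) and Fam98b by 0.68 ± 0.11 (limma adjusted p = 0.043). Meis2 went from 98.8 and 79.4 to between 47.0 and 80.5 (-0.69 ± 0.19), which missed the threshold with a limma adjusted p of 0.093. Without the TERT-on 0 h array of low Gapdh ratio, neither call held: Spred1 then differed by -1.61 ± 0.22 (limma adjusted p = 0.076) and Fam98b by -0.62 ± 0.15 (limma adjusted p = 0.38). Without TERT-on mouse 1 the values were -1.69 ± 0.24 and -0.57 ± 0.18 (limma adjusted p of 0.39 and 0.73), and the Fam98b call was also lost without any 1 of the other mice (limma adjusted p of 0.087 to 0.13) and with the mouse as a fixed replicate block (limma adjusted p = 0.06). The difference between cohorts was not called for any of the 3 genes, at -0.16 ± 0.24 for Spred1, -0.12 ± 0.16 for Fam98b and -1.10 ± 0.27 for Meis2 (limma adjusted p of 0.78, 0.74 and 0.29).

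**Figure D1:**
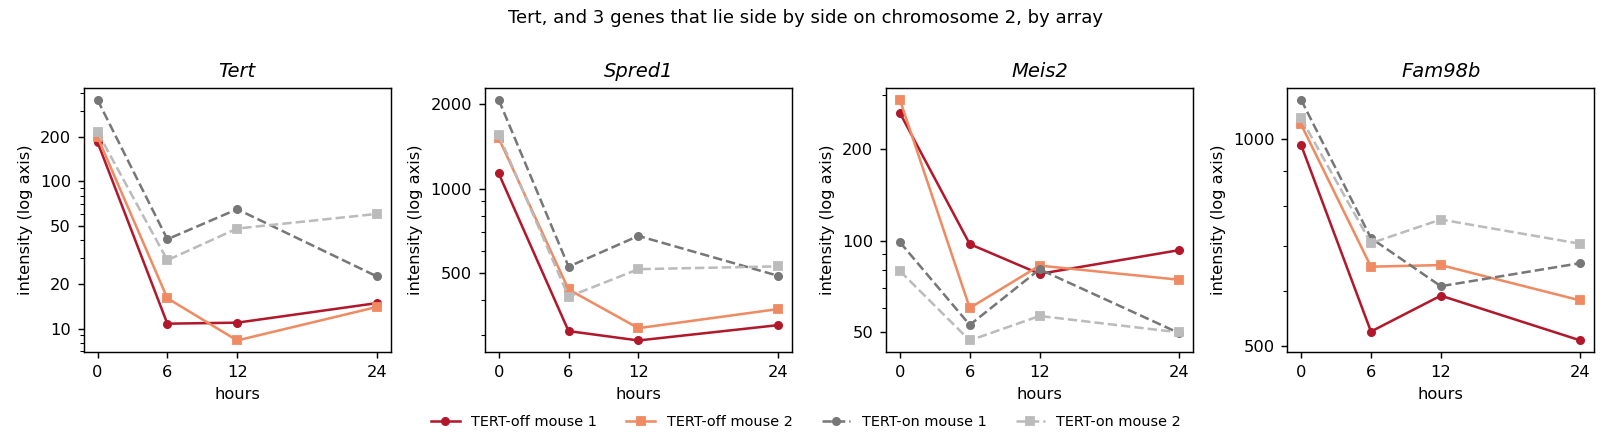
Intensity on a log axis against hours for Tert, Spred1, Meis2 and Fam98b, with 1 point per array. Solid lines are the TERT-off mice and dashed lines the TERT-on mice; in both TERT-off mice each gene is low at 6 h and stays there, Tert between 8.32 and 16.1.

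Over all 3 later times, 62 genes were called against 0 h, which is 0.493% of those tested: 45 rose (0.358%) and 17 fell (0.135%). The median change over all genes was 0.01. Of the called genes with 8 values, 36 of 40 that rose had all 6 later arrays above both 0 h arrays, and 17 of 17 that fell had them all below. Over all genes with 8 values, 5.77% lay wholly above and 5.41% wholly below. The called genes were picked on these same arrays, so their separation is no further evidence for the calls. With the mouse as a fixed replicate block, the paired form of the same fit, 24 genes were called, 14 higher and 10 lower. The count was 20 without TERT-off mouse 1, with 4 higher and 16 lower, 8 without TERT-off mouse 2, 8 without TERT-on mouse 1, 11 without TERT-on mouse 2 and 31 without the 1 TERT-on array of low Gapdh ratio. Left out as whole times, the 6 h arrays raised it to 253, while without the 12 h arrays it was 8 and without the 24 h arrays 18.

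Several enzyme genes were among the strongest rises. Inmt, an indolethylamine methyltransferase, went from 107 at 0 h to 1963, 1160 and 233 in mouse 1, and from 62.1 to 1204, 1725 and 239 in mouse 2. It peaked at 6 or 12 h and had come most of the way back by 24 h in each mouse. Its rise over the later arrays was 3.30 ± 0.40 (limma adjusted p = 0.0055). Aox3, an aldehyde oxidase, rose by 2.46 ± 0.28, from 18.2 and 20.4 to between 47.8 and 182. Cyp2e1, an ethanol-inducible cytochrome P450, had 337 and 325 at 0 h and 1314 to 2742 later, a rise of 2.45 ± 0.46 (limma adjusted p = 0.044). Aldh1a1, which makes retinoic acid, went from 135 and 96.3 up to 1270 and 574 at 6 h, then down to 202 and 384 at 24 h. Galnt15, a glycosyltransferase that starts O-linked sugar chains, behaved alike, with a start of 31.7 and 24.5, a 6 h level of 470 and 203, and a 24 h level of 49.6 and 118.

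Other rises included genes of matrix and of immune cells, and whole skin does not show which cells they came from. Lox, the enzyme that cross-links collagen and elastin, rose by 1.82 ± 0.24 (limma adjusted p = 0.0095), from 345 and 273 to between 763 and 1355. Pamr1, a secreted peptidase-domain protein, was highest at 12 h, at 216 and 186 against 22.6 and 24.6 at 0 h. Agt, the precursor of angiotensin, had 24.2 and 33.9 at 0 h and 80.9 to 159 later (1.88 ± 0.34). Fcna, a lectin of macrophages, rose by 1.83 ± 0.32 and peaked at 12 h in mouse 2, at 1100. Cd14, the macrophage co-receptor for bacterial lipopolysaccharide, rose from 177 and 78.7 to 676 and 880 at 24 h (1.90 ± 0.34 over the later arrays). Serpina3n, an acute-phase protease inhibitor, rose by 1.66 ± 0.29 and Plac8, a gene of myeloid cells, by 2.30 ± 0.39. The cold-induced RNA-binding protein gene Cirbp rose by 1.79 ± 0.27, and Dmrt2, a transcription factor gene, by 1.92 ± 0.36.

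Of 14 macrophage markers, all measured, 2 were called higher over the later arrays (Fcna and Cd14) and none lower. Over all genes 0.358% were called higher. The median change of the markers was 1.29 against 0.01 over all genes. The mean log2 intensity of the list went from 8.99 to 10.1 at both 6 and 12 h in mouse 1, and from 8.27 to 8.94 at 6 h and 10.2 at 12 h in mouse 2. At 6, 12 and 24 h the list's median change was 1.14, 1.10 and 0.66 in TERT-off mouse 1 and 0.63, 1.95 and 1.49 in mouse 2. In TERT-on mouse 1 it was 0.64, 1.34 and 0.93, and in TERT-on mouse 2 it was 0.03, -0.14 and -0.18. In whole skin, more macrophages and more of these RNAs per macrophage cannot be told apart.

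Among the falls, several genes respond to low oxygen or heat. Hsph1, a heat shock protein of the HSP110 family, went from 465 and 679 to between 123 and 292 (-1.51 ± 0.22, limma adjusted p = 0.018). Vegfa, the growth factor of blood vessels, had 176 and 116 at 0 h and 37.4 to 81.4 later (-1.27 ± 0.21). Its other probe set went the other way, at 0.19, so that 1 of 2 probe sets shows the fall. Ankrd37 and Plod2, both induced by hypoxia, fell by 1.39 ± 0.21 and by 1.80 ± 0.31, the latter a lysyl hydroxylase of collagen. Of 12 hypoxia-responsive genes, 2 fell (Vegfa and Ankrd37) and 1 rose: Adm, the vasodilator adrenomedullin, by 1.80. Adm has no value on 1 TERT-off array and was named after its value was seen. The list's median was -0.40. Over all genes 0.135% were called lower and 0.358% higher. Further falls were those of Ak4, a mitochondrial adenylate kinase (-1.14 ± 0.16), Prkag3, the muscle subunit of AMP kinase (-1.18 ± 0.21), Tnfrsf25, a death receptor (-1.06 ± 0.19), the nuclear matrix gene Banp (fell by 1.0 ± 0.15), the polymerase regulator Rprd1a (-0.88 ± 0.15), the ciliary transport gene Ift80 (-0.83 ± 0.15) and Jmjd6, a lysyl hydroxylase of splicing factors (-0.68 ± 0.11). Of the genes with several probe sets, Plod2, Ak4, Ift80 and Jmjd6 had 1 of 2 called and Rprd1a 1 of 3. All of these probe sets were lower, with the weakest of Rprd1a at -0.0047. The Vegfa and Hsph1 levels were lowest at 6 h in mouse 1, and in mouse 2 Hsph1 reached its low at 12 h.

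The TERT-on arrays give the same genes' values under vehicle. Of the 40 genes with 8 values that rose in TERT-off skin, 30 had a change above 0 in TERT-on skin, 0 were called there (limma, 2470 genes at an unadjusted p under 0.05 over all genes) and their median change was 0.27, against 1.44 in TERT-off skin. Of the 17 that fell, 17 also had a change below 0 under vehicle, 5 were called there and the medians were -0.68 and -1.14. Both sets were picked by their TERT-off change, which by itself widens the gap between the medians. That gap is therefore no measure of a difference between the cohorts. Over all genes the vehicle comparison called 23 (0.183%), 5 higher (0.0397%) and 18 lower (0.143%). These calls were lost without the 0 h array of low Gapdh ratio or without TERT-on mouse 1. Fewer genes were called without either TERT-off mouse, and more without TERT-on mouse 2. Each such fit leaves 1 array in a group, so on what the 5 calls rest was not tested. The test of the difference itself called 1 gene (0.00795%), and 1803 genes had an unadjusted p under 0.05. That gene was Cxcl13, a chemokine for B cells, which stood at 78.3 and 77.0 at 0 h and at 865 to 1714 on the 5 later TERT-off arrays with a value, against 110 to 317 on the later TERT-on arrays. Its change was larger in TERT-off skin by 2.27 ± 0.26 (limma adjusted p = 0.036). It is named although it lacks the 12 h value of mouse 2, after its values were seen. Without TERT-off mouse 1 there were 11 called genes, without TERT-off mouse 2 there were 2, without TERT-on mouse 2 there were 4, and without TERT-on mouse 1 or its 0 h array there was none, while 0 were called with the mouse as a fixed replicate block.

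At 6 h, 38 genes were called (0.302%), 20 higher (0.159%) and 18 lower (0.143%). The rises were led by Inmt (4.24 ± 0.50), Galnt15 (3.47 ± 0.48), Aldh1a1 (2.91 ± 0.45), Aox3 (2.62 ± 0.34) and Fkbp5 (2.13 ± 0.34, limma adjusted p = 0.032). Fkbp5 encodes a co-chaperone of the glucocorticoid receptor and is a standard glucocorticoid target. It was called on 1 of its 2 probe sets, and both were higher. Its intensity was 161, 1134, 167 and 225 at 0, 6, 12 and 24 h in mouse 1, and 160, 436, 219 and 306 in mouse 2, a peak at 6 h in each. Of 15 glucocorticoid-responsive genes measured, Fkbp5 was the 1 called at 6 h, with a list median of 0.65. Il1r2, the decoy receptor for interleukin-1, rose at 6 h by 1.58 ± 0.27, from 642 and 443 to 1956 and 1292. The falls were led by Tert (-3.86 ± 0.41), Meis2 (-1.85 ± 0.23), Spred1 (-1.83 ± 0.21), Vegfa (-1.77 ± 0.26) and Hsph1 (-1.77 ± 0.27). With the replicate block 13 genes were called at 6 h. Without TERT-off mouse 1 there were 2, without TERT-off mouse 2 there were 22, and without either TERT-on mouse 3.

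Enzymes of cholesterol synthesis were lower at 6 h. Idi1, the isopentenyl diphosphate isomerase, had 605, 138, 651 and 841 at 0, 6, 12 and 24 h in mouse 1, and 678, 326, 588 and 700 in mouse 2. Fdft1, squalene synthase, had 508, 247, 504 and 514 in mouse 1, and 454, 318, 539 and 544 in mouse 2. Both mice were lowest at 6 h and near their 0 h level by 12 h. Of 12 measured genes of the pathway, 2 fell at 6 h (Idi1 by 1.60 ± 0.29 and Fdft1 by 0.78 ± 0.14) and none rose, with a median of -0.68, and 10 of 12 were lower at 6 h than at 0 h in both mice, against 28% of all genes. Against 6 h, 5 of the 12 were higher at 24 h: Idi1 (1.86 ± 0.29), Fdps (1.06 ± 0.17), Cyp51 (0.99 ± 0.17), Fdft1 (0.92 ± 0.14) and Msmo1 (0.73). Over all genes 0.143% were called lower at 6 h, and 0.866% were called higher at 24 h against 6 h. This last comparison uses no 0 h array, and in it Cyp51 was called on 1 of its 2 probe sets, both higher. In the TERT-on mice the median change of the pathway at 6 h was 0.19 and 0.45. The test of the difference between cohorts at 6 h, added after the data were seen, called 0 genes in limma (1561 at an unadjusted p under 0.05), so a difference between the cohorts was not shown.

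**Figure D2:**
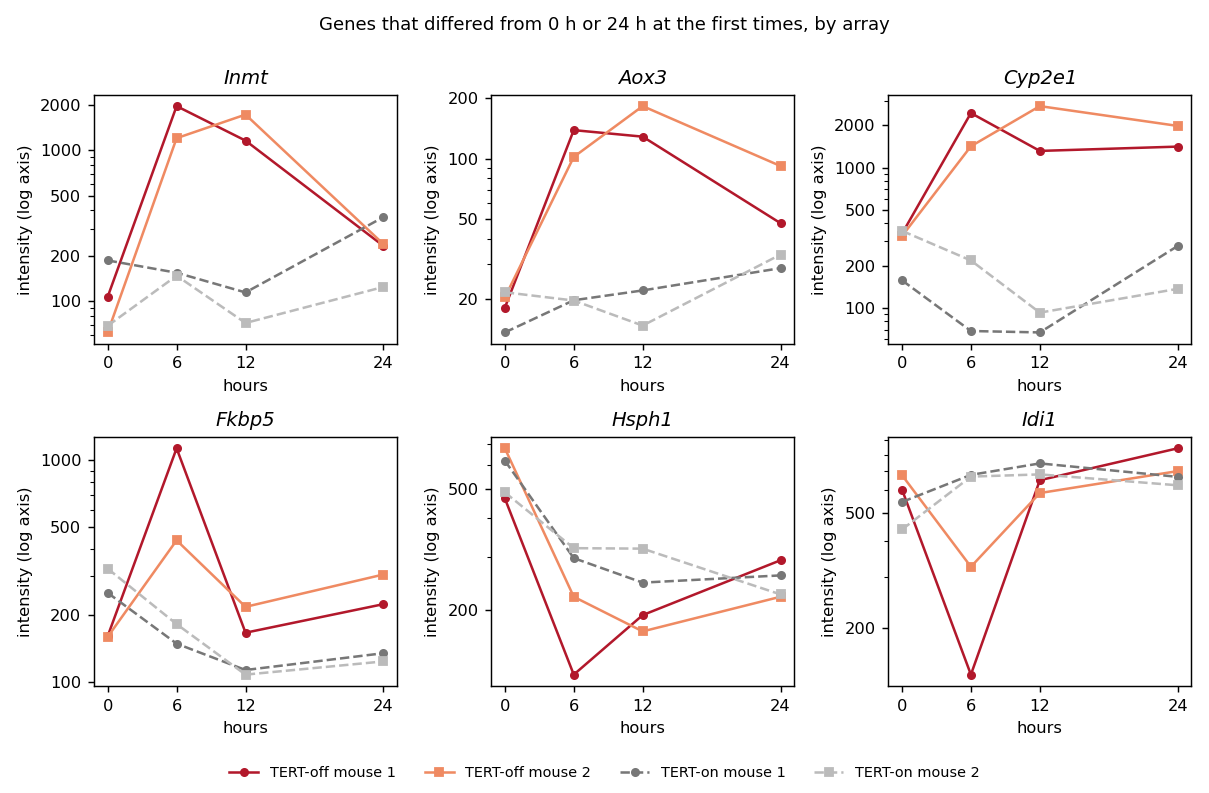
Intensity on a log axis against hours for Inmt, Aox3, Cyp2e1, Fkbp5, Hsph1 and Idi1, with 1 point per array, solid for TERT-off and dashed for TERT-on mice. Inmt reaches 1204 to 1963 at 6 or 12 h in the TERT-off mice and 71.7 to 361 on the later TERT-on arrays, Fkbp5 peaks at 6 h in both TERT-off mice, and Idi1 dips at 6 h to 138 and 326.

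At 12 h, 20 genes were called against 0 h (0.159%), 13 higher (0.103%) and 7 lower (0.0556%). Inmt (4.12 ± 0.50), Pamr1 (3.09 ± 0.38), Aox3 (2.99 ± 0.34), Fcna (2.55 ± 0.40) and Lox (2.02 ± 0.29) led the rises among genes with 8 values. Tert (-4.33 ± 0.41), Plod2 (-2.28 ± 0.38), Spred1 (-2.11 ± 0.21), Meis2 (-1.78 ± 0.23) and Hsph1 (-1.63 ± 0.27) led the falls. The count was 13 with the replicate block, 21 without TERT-off mouse 1, 5 without TERT-off mouse 2 and 4 without either TERT-on mouse. Set against 0 and 24 h together, which share the hour of the day, 12 h had 2 genes higher (0.0159%), Cxcl13 and Inmt, and 0 lower by limma, with 1250 genes at an unadjusted p under 0.05. Nr1d1, which encodes the repressor REV-ERBα, had 69.2, 34.5, 29.9 and 102 in mouse 1, and 40.8, 27.1, 33.5 and 92.2 in mouse 2. Its level was low at 6 and 12 h and high at 24 h in each mouse, and it rose from 6 to 24 h by 1.67 ± 0.24 (limma adjusted p = 0.014). Cry1, another clock repressor, peaked at 6 h at 188 and 190 and fell by 0.83 ± 0.17 from 6 to 24 h (limma adjusted p = 0.049). Of 12 clock repressor and output genes measured, these were the 2 called between 6 and 24 h, and 0 were called at any time against 0 h. Over all genes 1.3% were called between 6 and 24 h.

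At 24 h, 77 genes were called against 0 h (0.612%), 63 higher (0.501%) and 14 lower (0.111%). Between 6 and 24 h, a comparison without the 0 h arrays, 163 genes were called (1.3%), 109 higher (0.866%) and 54 lower (0.429%). The rises included genes of neutrophils and chemokines. S100a9, a calcium-binding protein that neutrophils carry in bulk, had 411, 784, 1074 and 4784 in mouse 1, and 227, 403, 1344 and 4604 in mouse 2. Its level grew at each time in both mice, and the rise at 24 h was 3.94 ± 0.51 (limma adjusted p = 0.0063). Cxcr2, the chemokine receptor by which neutrophils are recruited, was near the floor at 0 h (5.49 and 4.52) and at 88.2 and 114 at 24 h. Values under 7.71 were raised to that floor in the fit, which gave a rise of 3.70 ± 0.49, and without the floor the call was lost. Lcn2, an iron-binding protein of neutrophils and keratinocytes, went from 136 and 100 to 1815 and 1437 (3.79 ± 0.69, limma adjusted p = 0.037).

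Of 14 neutrophil markers measured, 7 rose at 24 h and 7 between 6 and 24 h, with none lower, at medians of 2.88 and 2.07 against -0.01 over all genes for each. Over all genes 0.501% and 0.866% were called higher in these comparisons. At 24 h, 9 of the 14 were at least 2-fold above 0 h in both mice, against 1.22% of all genes. The summed intensity of the list went from 4085 at 0 h to 10121 at 24 h in mouse 1, and from 3550 to 14357 in mouse 2. Clec4d, a lectin receptor of neutrophils and macrophages, rose between 6 and 24 h by 3.69 ± 0.70, from 29.0 and 27.6 to 344 and 385. Hdc, the histamine-making enzyme on the mast cell list, rose at 24 h by 3.22 ± 0.41, from 21.2 and 17.5 to 134 and 239, while it was the 1 of 8 mast cell markers called.

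Chemokines and cytokines that attract these cells rose late. Ccl2, the main monocyte attractant, had 80.8, 28.2, 135 and 468 in mouse 1, and 28.4, 12.1, 65.0 and 512 in mouse 2. Ccl7, its neighbour in sequence and function, had 172, 58.9, 225 and 674 in mouse 1, and 57.3, 24.2, 122 and 947 in mouse 2. Il1b, interleukin-1β, had 82.7, 60.6, 121 and 532, and 48.5, 40.8, 152 and 409. In each gene and each mouse 6 h was the lowest point and 24 h the highest. Between 6 and 24 h Ccl2 rose by 4.73 ± 0.53 (limma adjusted p = 0.0053), Ccl7 by 4.41 ± 0.54, Il6 by 3.83 ± 0.61, Ccl4 by 3.61 ± 0.38 and Il1b by 3.23 ± 0.28 (limma adjusted p = 0.0029). For Il6 both 6 h values lie under the floor, so that its fitted change depends on the floor. The values of Ccl2, Ccl7 and Il1b at 6 h themselves were not called against 0 h (-1.38, -1.40 and -0.35). Cxcl1, the neutrophil attractant, rose at 24 h by 2.89 ± 0.44, from 49.5 and 38.7 to 279 and 378. Of 20 chemokines measured, 5 were called higher at 24 h, Cxcl1, Cxcl13, Ccl2, Ccl4 and Ccl7, and none lower, with a list median of 0.79. Over all genes 0.501% were called higher at 24 h.

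Some wound and matrix genes were also highest at 24 h. Krt16, a keratin that epidermis makes when injured, had 203, 421, 831 and 1770 in mouse 1, and 173, 118, 342 and 1657 in mouse 2 (3.19 ± 0.57 at 24 h, limma adjusted p = 0.035). Of 12 wound keratinocyte genes, 2 rose at 24 h, Krt16 and Tnc, the matrix protein tenascin C, which lacks a value on 1 TERT-off array and was named after its value was seen. Timp1, an inhibitor of matrix metalloproteinases, had 173 and 109 at 0 h and 1478 and 802 at 24 h. From 6 to 24 h it rose by 3.13 ± 0.46, with the collagenase Mmp13 (3.29 ± 0.66, with both 6 h values under the floor) and the gelatinase Mmp9 (1.88 ± 0.39). The immediate early genes Fosl1 and Ier3 rose at 24 h by 2.40 ± 0.45 and 1.12 ± 0.20, as 2 of 16. The share called higher at 24 h over all genes was 0.501%. Itgb4, the hemidesmosome integrin of basal keratinocytes, rose by 0.83 ± 0.16 and Pecam1, of blood vessel endothelium, by 1.38 ± 0.27.

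The single largest rise at 24 h was in Myog, myogenin, a regulator of muscle differentiation. It had 15.7, 10.8, 52.7 and 200 in mouse 1, and 12.0, 7.41, 49.2 and 398 in mouse 2 (4.37 ± 0.62, limma adjusted p = 0.01). Rrad, a small GTPase of muscle, followed with 32.3, 27.8, 56.1 and 262 in mouse 1, and 17.2, 12.7, 89.8 and 543 in mouse 2 (4.00 ± 0.49). Slfn4, a schlafen gene of myeloid cells, rose by 3.89. Of 15 genes of mature skeletal muscle, all measured, 0 were called at 24 h by limma, and their median change was 0.28. Aqp4, the water channel of muscle fibres and glia, fell from 244 and 113 to 5.52 and 17.5, by 3.84 ± 0.69, with 1 value under the floor. Ppargc1a, which drives mitochondrial genes in muscle, fell by 1.74 ± 0.31. All 5 of its probe sets were lower but 1 was called, and of the 2 of Aqp4, both lower, 1 was called. In TERT-on skin Myog also stood at 156 and 118 at 24 h, and the 24 h minus 6 h difference between cohorts was 2.01 ± 0.87 for it, which was not called (limma adjusted p = 0.47).

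Genes lower at 24 than at 6 h were led by Akr1c14, a steroid reductase (-2.84 ± 0.50), Inmt (-2.70 ± 0.50), Ear3, an eosinophil-associated ribonuclease whose probes may also bind transcripts of its close paralogs (-2.06 ± 0.36), Cyp39a1, an oxysterol hydroxylase (-1.87 ± 0.26), and Cldn10, a tight junction protein (-1.66 ± 0.32). Odc1, the first enzyme of polyamine synthesis, and Rrp9, a ribosome assembly factor, rose by 1.18 ± 0.24 and 1.03 ± 0.21. They were 2 of 16 genes of the Myc and ribosome assembly list, against 0.866% of all genes called higher. Mthfd2, of mitochondrial folate metabolism, rose by 0.92 ± 0.19, and Krt14 by 0.57 ± 0.12. Odc1 and Krt14 were each called on 1 of 3 probe sets and Mthfd2 on 1 of 2, and all of these probe sets were higher. With the replicate block 62 genes were called at 24 h and 130 between 6 and 24 h. The counts were 65 (27 higher and 38 lower) and 50 (17 and 33) without TERT-off mouse 1, 3 and 10 without TERT-off mouse 2, 15 and 1 without TERT-on mouse 1, and 17 and 4 without TERT-on mouse 2.

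The timing of this rise was set against that under vehicle. The change from 6 to 24 h was compared between the cohorts in a test added after the data were seen. It called 27 genes (0.215%), 26 with the larger change in TERT-off skin (0.207%) and 1 with the smaller (0.00795%). In the TERT-on mice Ccl2 went from 85.7 and 46.1 at 6 h down to 16.7 and 20.9 at 24 h, and in the TERT-off mice it went from 28.2 and 12.1 up to 468 and 512. The TERT-on mice were thus highest at 6 h and the TERT-off mice at 24 h, and the difference was 6.48 ± 0.75 (limma adjusted p = 0.009). It was 6.01 ± 0.76 for Ccl7, 5.56 ± 0.87 for Il6, 4.95 ± 0.69 for Rrad, 4.45 ± 0.65 for Timp1, 4.28 ± 0.69 for Cxcr2, 4.10 ± 0.63 for Cxcl1, 4.01 ± 0.63 for Fosl1, 3.81 ± 0.40 for Il1b and 3.56 ± 0.54 for Ccl4. Of Krt16 (4.21 ± 0.80) and S100a9 (3.48 ± 0.73) the difference was not called, with limma adjusted p of 0.091 and 0.13. Within TERT-on skin no gene was called between 6 and 24 h by limma, and 383 had an unadjusted p under 0.05. The count of 27 was 17 with the mouse as a fixed replicate block and 17 without TERT-off mouse 1, of which 7 were higher and 10 lower. Without TERT-off mouse 2 or either TERT-on mouse it was 0.

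**Figure D3:**
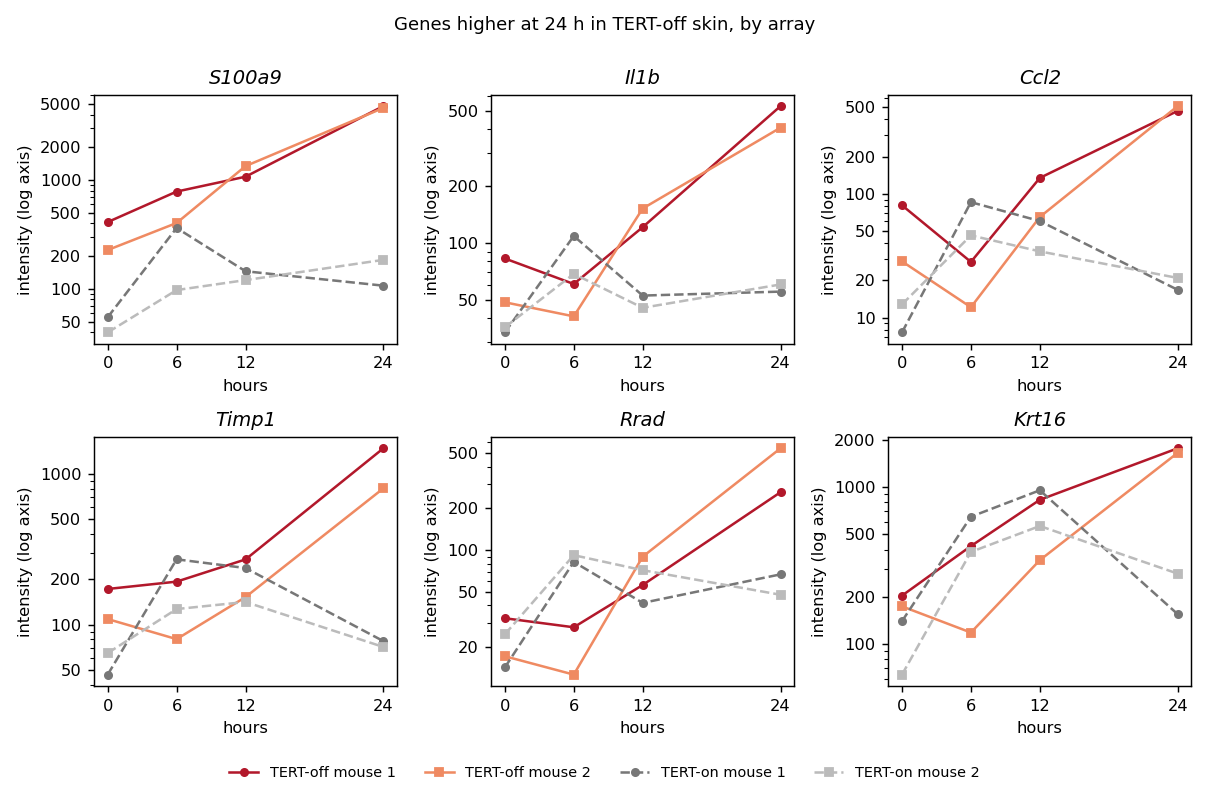
Intensity on a log axis against hours for S100a9, Il1b, Ccl2, Timp1, Rrad and Krt16, with 1 point per array, solid for TERT-off and dashed for TERT-on mice. Both TERT-off mice are highest at 24 h for all 6 genes, with Ccl2 at 468 and 512, while the TERT-on mice pass their peak at 6 or 12 h for 5 of the genes and TERT-on mouse 2 has its highest S100a9 value, 185, at 24 h.

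The mice can be read one against the other, since no array of 1 mouse enters the change of the other. At 6 h, 433 genes were at least 2-fold above their own 0 h level in mouse 1 and 142 in mouse 2, and 80 were in both (0.642% of genes with values), which is 18.5% of the first list and 56.3% of the second. For genes at least 2-fold lower these numbers were 509 and 82, with 30 in both (0.241%), or 5.89% and 36.6%. At 12 h, 244 and 764 were higher and 148 were in both (1.18%), and 404 and 556 were lower with 141 in both (1.13%). At 24 h, 364 and 653 were higher with 152 in both (1.22%), or 41.8% and 23.3%, and 391 and 569 were lower with 90 in both (0.722%), or 23.0% and 15.8%. Mouse 1 thus had the longer lists at 6 h and mouse 2 at 12 and 24 h. Genes at least 2-fold changed in opposite directions numbered 7, 7 and 30 at 6, 12 and 24 h. Across genes, which are not independent replicates, Pearson's r between the 2 mice was 0.32, 0.42 and 0.31, with Spearman's rho of 0.22, 0.38 and 0.30.

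Of 12413 genes with 8 values, 10 were at least 2-fold above 0 h in both mice at all 3 times: Cyp2e1, Lox, Galnt16, Inmt, Aox3, Xirp1, Ankrd2, Agt, Lcn2 and Lbp. Below 0 h by as much were 5: Tert, Spred1, Meis2, the cornea proteoglycan gene Kera and the fibulin gene Fbln7. Galnt16, Xirp1, Ankrd2, Lbp, Kera and Fbln7 are outside the naming rule and are given for completeness of the count. By the smaller of the mice's 2 changes, the strongest shared rises at 24 h were Lcn2, Myog, S100a9, Cxcr2 and the predicted gene Gm13889, and the strongest shared falls were Tert, Mlana, Aqp4, Corin and Tyr. Corin, a serine protease of the dermal papilla, had 59.3, 9.32, 7.16 and 9.19 in mouse 1, and 135, 129, 22.1 and 21.4 in mouse 2.

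**Figure D4:**
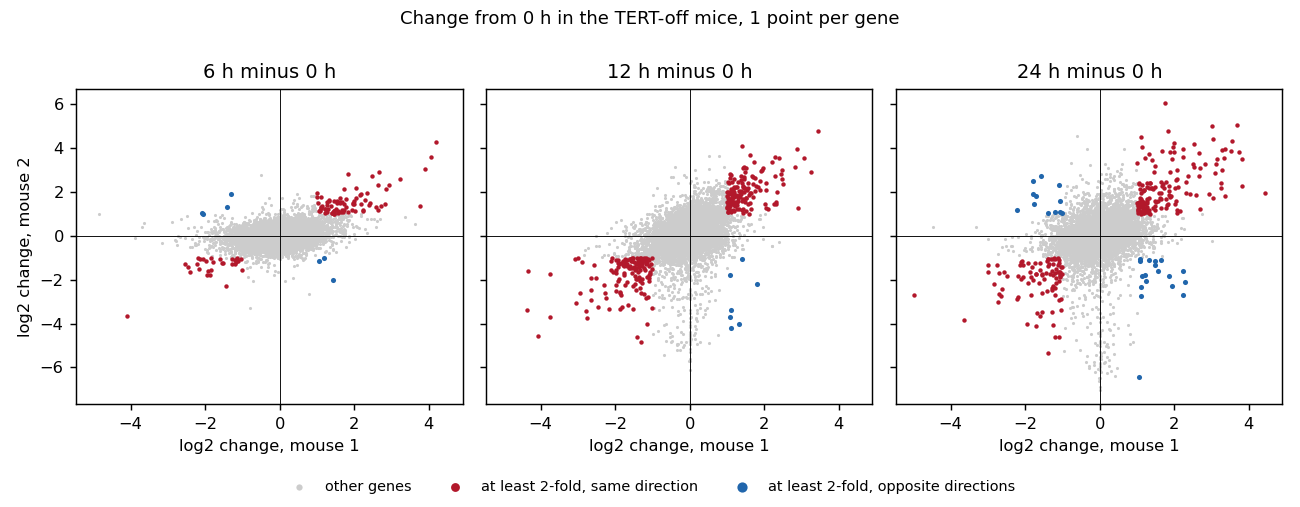
Log2 change from 0 h of each gene in TERT-off mouse 1 (horizontal) against mouse 2 (vertical) at 6, 12 and 24 h. Red points changed at least 2-fold in the same direction in both mice (110, 289 and 242 genes), blue points in opposite directions (7, 7 and 30), and a grey column of genes at 12 and 24 h is far lower in mouse 2 with almost no change in mouse 1.

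Hair shaft genes were among those lower in mouse 2 alone, and the 2 mice did not start alike. Krt31, a keratin of the hair shaft, had 9.50, 8.80, 8.90 and 8.73 in mouse 1, and 3304, 2542, 114 and 45.3 in mouse 2. Mouse 1 was thus near the floor at every time. Mouse 2 went from a level like that of the TERT-on mice at 0 h (2867 and 930) to 45.3, still above mouse 1. The mean log2 intensity of the 12 measured hair shaft keratins at 0 h was 4.33 in mouse 1 and 10.73 in mouse 2. In mouse 2 it then went through 10.58 and 6.37 to 5.62. The medians of the within-mouse changes at 24 h were -0.10 and -5.18. None of the 12 was called at any time (limma). The 37 measured keratin-associated protein genes, which form the matrix of the shaft, gave medians of 0.00 and -5.27 at 24 h and no call. The label gives anagen for both mice, while the shaft keratins of mouse 1 were near the floor on its 0 h array.

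The inner root sheath, the tube that guides the growing shaft, showed more in common. Krt25 had 166, 46.9, 45.0 and 235 in mouse 1, and 5760, 5038, 567 and 309 in mouse 2, and Tchh, trichohyalin, had 108, 15.3, 22.9 and 124, and 3905, 3407, 539 and 254. Each was far apart between the mice at 0 h and lower than its own start at 12 h in both. Of 10 measured sheath genes, 6 were at least 2-fold lower in both mice at 12 h, against 1.13% of all genes. At 24 h it was 1, against 0.722% of all genes. Of 15 regulators of the hair matrix, 5 were so at 12 h and 5 at 24 h, among them Shh, the hedgehog ligand, with 224, 5.89, 11.1 and 53.1 in mouse 1, and 238, 474, 77.8 and 106 in mouse 2. None of these was called by limma, in which a difference between the mice at any time adds to the spread.

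Pigment cell genes were lower in both mice. Tyr, tyrosinase, the rate-limiting enzyme of melanin synthesis, had 128, 37.0, 20.3 and 20.4 in mouse 1, and 428, 493, 77.7 and 64.1 in mouse 2. Tyrp1, a tyrosinase-related enzyme, had 567, 163, 99.3 and 92.9, and 1236, 970, 323 and 229. Dct, dopachrome tautomerase, had 1248, 563, 387 and 342, and 2560, 1981, 1033 and 813. In mouse 1 the drop was there at 6 h and in mouse 2 it came between 6 and 12 h, and each mouse ended well below its own 0 h level. Mlana, a melanosome protein, ended at 50.3 from 333 and at 137 from 1116, and Mc1r, the receptor for melanocyte-stimulating hormone, at 11.1 from 52.1 and at 14.4 from 106. Of 10 melanocyte markers, 7 were at least 2-fold lower in both mice at 12 h and 8 at 24 h, against 1.13% and 0.722% of all genes, and 10 of 10 were lower at 24 h in both mice, against 30.8% of all. The transcription factor genes Mitf (-0.66 ± 0.25) and Sox10 (-0.46 ± 0.19) were the 2 that stayed within 2-fold at 24 h. None was called (for Tyr -2.70 ± 0.98, limma adjusted p = 0.21), so that this is a description of 2 mice and not a tested fall. In the TERT-on mice the list had a median 12 h change of -1.16 and 0.34, and a median 24 h change of -0.10 and 0.70. TERT-on mouse 1 thus came near TERT-off mouse 1 at 12 h (-1.54). The difference between cohorts was not called for any of them, at -2.08 ± 1.13 for Tyr (limma adjusted p = 0.43).

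The promoters of 4 of these genes are shown because the genes moved together and each window holds the letters TCATGTG. These are the core of the longer M-box, a sequence that the pigment cell factor MITF binds, and the bases around the core were not matched. RefSeq windows of 300 bases (250 before to 50 after the start) of build GRCm38.p6 were found for 6 of the 10 markers, and 4 of 6 hold the letters on either strand, against 4.31% of 27025 genes. The capitals mark the match, which is written as its reverse complement where it lies on the other strand. A match is a description of the letters and says nothing of binding in these samples. The windows are those of Tyr (chr7:87493463-87493762, minus strand), Tyrp1 (chr4:80833963-80834262, plus strand), Mc1r (chr8:123406832-123407131, plus strand) and Dct (chr14:118052197-118052496, minus strand, with 2 matches).
Tyr: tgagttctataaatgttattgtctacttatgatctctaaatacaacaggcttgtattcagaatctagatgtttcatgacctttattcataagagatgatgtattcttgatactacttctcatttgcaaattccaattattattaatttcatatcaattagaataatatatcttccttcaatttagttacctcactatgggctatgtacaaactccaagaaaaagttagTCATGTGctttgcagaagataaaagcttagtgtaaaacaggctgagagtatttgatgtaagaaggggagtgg
Tyrp1: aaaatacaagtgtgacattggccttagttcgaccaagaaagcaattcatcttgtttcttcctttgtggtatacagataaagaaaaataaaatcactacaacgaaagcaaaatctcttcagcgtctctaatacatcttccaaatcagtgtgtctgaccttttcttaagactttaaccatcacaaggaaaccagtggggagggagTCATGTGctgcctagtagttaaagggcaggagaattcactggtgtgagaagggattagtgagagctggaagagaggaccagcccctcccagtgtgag
Mc1r: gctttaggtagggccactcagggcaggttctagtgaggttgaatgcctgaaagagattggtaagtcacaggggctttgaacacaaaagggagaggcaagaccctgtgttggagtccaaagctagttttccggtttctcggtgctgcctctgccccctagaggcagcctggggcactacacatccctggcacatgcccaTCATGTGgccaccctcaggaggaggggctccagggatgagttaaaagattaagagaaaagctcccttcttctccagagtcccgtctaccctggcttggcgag
Dct: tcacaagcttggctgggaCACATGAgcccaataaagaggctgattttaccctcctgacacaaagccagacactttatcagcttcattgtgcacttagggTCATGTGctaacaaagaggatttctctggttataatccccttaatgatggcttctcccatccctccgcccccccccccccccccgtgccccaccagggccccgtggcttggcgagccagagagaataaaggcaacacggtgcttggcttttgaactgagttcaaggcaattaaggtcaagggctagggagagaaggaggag

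With the same windows, the palindrome CACGTG, an E-box to which clock factors bind, was held by 4 of 10 matched clock repressor and output genes, among them Cry1, against 8.09% of all genes. TCACNCCAC, a sterol element, was held by 1 of 9 matched cholesterol synthesis genes, against 1.44% of all. Nr1d1, Idi1 and Fdft1 were not among those with a match.

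Proliferation genes were lowest at 12 h. Top2a, a topoisomerase of dividing cells, had 779, 427, 303 and 634 in mouse 1, and 744, 771, 299 and 367 in mouse 2. Cdk1, the mitotic kinase, had 789, 432, 351 and 703, and 824, 788, 336 and 346. The 12 h arrays were the lowest of each mouse, and mouse 1 had returned toward its 0 h level by 24 h while mouse 2 had not. Of 30 cell cycle genes, 10 were at least 2-fold lower in both mice at 12 h (against 1.13% of all genes) and 0 at 24 h, and 28 of 30 were lower at 12 h in both, against 28.2% of all. Limma called 0 of the 30 at any time, with a limma adjusted p of 0.098 for Top2a at 12 h (-1.34 ± 0.30).

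**Figure D5:**
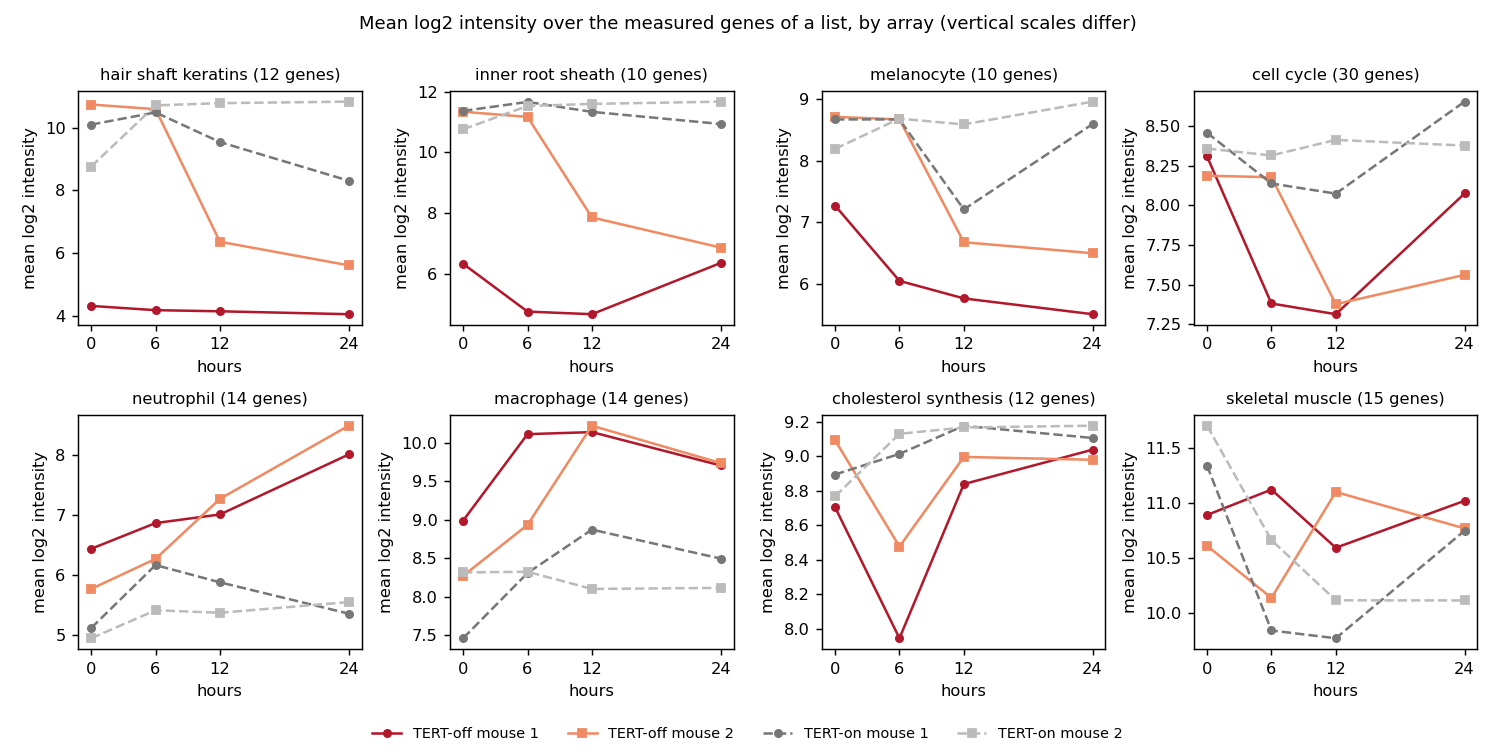
Mean log2 intensity over the measured genes of 8 lists against hours, with 1 point per array, solid for TERT-off and dashed for TERT-on mice; vertical scales differ. Hair shaft keratins lie at 4.33 in TERT-off mouse 1 and 10.73 in mouse 2 at 0 h. They come closer only as mouse 2 drops, and lie at 4.07 and 5.62 at 24 h. In both TERT-off mice melanocyte genes are lower at 12 and 24 h, cell cycle genes are lowest at 12 h, and neutrophil genes are highest at 24 h.

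Some genes went opposite ways. By the smaller of the absolute changes, the 6 largest such differences at 24 h were in Nnat, Gjb2, Pla2g2e, Upp1, Art1 and Ms4a4c. Gjb2, connexin 26, had 129, 95.2, 143 and 629 in mouse 1, and 1936, 1912, 217 and 447 in mouse 2. Upp1, uridine phosphorylase, had 35.9, 40, 45.3 and 131, and 364, 393, 57.5 and 103. Pla2g2e, a phospholipase of the follicle, had 12.9 and 195 at 0 h and 49.2 and 40.2 at 24 h. In these 3 genes the mice were far apart at 0 h and within 2-fold of each other at 24 h. Nnat, neuronatin, went from 45.7 to 215 and from 78.2 to 12.2, Art1, a muscle ADP-ribosyltransferase, went from 279 to 80.1 and from 96.5 to 363, and Ms4a4c, of immune cells, from 113 to 32.9 and from 23.8 to 136. These 3 moved apart or crossed. Interferon-stimulated genes also differed, with a median change at 24 h of -0.09 in mouse 1 and 2.03 in mouse 2 over 12 measured genes and no call.

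Several further lists held no called member in any TERT-off comparison with 0 h or between 6 and 24 h (limma): 30 genes of the Wnt pathway, 17 of the BMP pathway, 12 of antigen presentation, 8 of complement, 10 of adipocytes, 8 of the sebaceous gland, 9 of suprabasal keratinocytes and 15 of skeletal muscle. Their median changes over the later arrays were -0.12, -0.29, 0.29, 0.91, 0.19, 0.07, 0.16 and 0.18, beside 0.01 over all genes. All 8 complement genes were above 0 h in both mice at each of the 3 times, as were 10.8% of all genes. Where the markers of several cell types moved with the times, as those of neutrophils, macrophages and melanocytes did, their part in the other changes was not tested.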

How the data were processed

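The authors hybridised 1 Affymetrix mouse array per biopsy, scaled the arrays in dChip to an invariant set of probes and deposited linear intensities from its model of perfect-match minus mismatch signal. The table holds 45101 probe sets and 1425 empty cells, 811 of them on TERT-off arrays. Depth has no counterpart on arrays, and the number of arrays limits the precision. Values under the 20th percentile (7.71) were raised to it, probe sets above the table's median (34.4) on at least 2 arrays were kept, and log2 intensities of 25563 probe sets were fitted in limma 3.58.1 (R 4.3.3, statmod 1.5.0) with 8 group means, all 16 arrays, the mouse as a random block and a variance trend. P-values were adjusted by the method of Benjamini and Hochberg. Of the probe sets, 34958 carry 1 gene symbol, 932 several and 9211 none, and each of 12580 genes is given by its brightest probe set. On simulated data for later against 0 h, 78 of 100 changes of 1.5 and 97 of 100 of 3 on the log2 scale were recovered over 25563 probe sets, with 4 false calls. The simulated noise was independent between arrays and held no mouse effect, so these figures do not measure how reliable the calls above are.

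Replicate numbers were taken as mice, from the study's account of serial biopsies. The differences between TERT-off mouse 1 and mouse 2 correlated between times at r = 0.20 to 0.75, and those of the TERT-on mice at -0.27 to 0.33. Genes were named by a rule: with 8 TERT-off values, Tert and Krt5, the largest called changes of each comparison, up to 4 called members of each list, the 5 largest rises and falls that both mice shared at 24 h, the 6 largest opposite changes, and defining cell type markers. The comparisons of single times between cohorts were added after the data were seen. The genes, lists and comparisons were chosen with earlier results of these data known. Summaries and figures were made in Python 3.11.15 with pandas 2.3.3, numpy 2.4.6 and matplotlib 3.10.9.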

Additional observations from a re-analysis of the deposited data

Results flagged for a closer look

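Of the differences between the cohorts' changes, those that passed the test or moved one way in all arrays of one cohort and the other way in the other are listed here. The rise of Cxcl13 was larger under doxycycline than under vehicle, by 2.27 over the later arrays and by 2.65 at 24 h. From 6 to 24 h, 27 genes differed. The differences were 6.48 for Ccl2, 6.01 for Ccl7, 5.56 for Il6, 4.95 for Rrad, 4.45 for Timp1, 4.28 for Cxcr2, 4.10 for Cxcl1, 4.01 for Fosl1, 3.81 for Il1b and 3.56 for Ccl4. Fkbp5 was above its mouse's own 0 h level on 6 of 6 later TERT-off arrays and below it on 6 of 6 later TERT-on arrays, a difference of 2.13, which did not pass the test over all genes (limma adjusted p = 0.27).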

How the results depend on the processing

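Counts of called genes depended on the spread model and on single mice. Without the filter on low values they were 19 (later), 18 (6 h), 11 (12 h), 31 (24 h), 86 (24 against 6 h), 5 (12 h against 0 and 24 h), and between cohorts 2 (later), 1 (6 h), 1 (12 h) and 17 (24 against 6 h). With the mouse as a fixed replicate block they were 24, 13 and 13 for later, 6 h and 12 h, and between cohorts 0 (later), 0 (24 h) and 17 (24 against 6 h), and with no mouse term 30, 22, 10, 74 (24 against 6 h), 1 (12 h against 0 and 24 h), 0 (later, between cohorts), 0 (24 h, between cohorts) and 14. On the 8 TERT-off arrays alone they were 10, 4, 4, 34 and 14. Without the variance trend 23 were called at 6 h, 1 at 12 h against 0 and 24 h, and 0 between cohorts for later and for 24 h. The higher floor gave 46 at 12 h, 14 at 12 h against 0 and 24 h and 5 at 24 h between cohorts, centring gave 31 at 12 h and 0 between cohorts for later and 24 h, and quantile normalization 5 at 12 h against 0 and 24 h. Without the TERT-on mouse 1 array of 0 h the later count was 31 and the cohort differences for later and 24 h gave 0. Without the 12, 24 or 6 h arrays the later count was 8, 18 or 253.

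Leaving out 1 mouse gave 8 to 20 (later), 2 to 22 (6 h), 4 to 21 (12 h), 3 to 65 (24 h), 1 to 50 (24 against 6 h) and 0 to 4 (12 h against 0 and 24 h), and between cohorts 0 to 11 (later), 0 to 4 (6 h), 0 to 12 (12 h), 0 to 21 (24 h) and 0 to 17 (24 against 6 h). Each such fit leaves 1 mouse in a cohort, assumed to vary like the others. Changes shared by both mice numbered 437, 957 and 783 at 1.5-fold and 11, 29 and 42 at 4-fold. The sign at 24 h turned for 6 uncalled genes, Nnat also with the higher floor (0.16). With either TERT-off mouse left out, values ran from -2.68 to 2.23 for Nnat, -2.11 to 2.28 for Gjb2, -2.28 to 1.93 for Pla2g2e, -1.83 to 1.86 for Upp1, -1.80 to 1.91 for Art1 and -1.78 to 2.51 for Ms4a4c. Of 99 called values of named genes, none kept its call under all its alternatives, none reversed, and 953 of 1575 alternatives kept the call. The causes were not tested.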
